A study of Patiria miniata with 18 samples.

Results

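The genes described here encode carriers of amino acids, small peptides and neurotransmitters in larvae of the bat star Patiria miniata. A locus was included where its name in the authors' gene table, a name of the kind used for vertebrate genes, belonged to solute carrier family Slc1, Slc3, Slc6, Slc7, Slc15, Slc17, Slc18, Slc32, Slc36, Slc38 or Slc43. This rule used names alone and no measured value. It found 68 of the 31798 expressed loci, where expressed means more than 3 CPM, read counts scaled to the size of the library, in at least 2 libraries. The 68 loci carried 21 gene names from 10 of the 11 families. No expressed locus was named for Slc32, the vesicular carrier of GABA and glycine.

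Larvae were cut across the foregut at 7 days post fertilization (dpf), midway between their ends, and each fragment was left to regenerate with food. RNA of anterior fragments, posterior fragments and uncut sibling control larvae was sampled 3 hours post bisection (hpb) and 3 or 6 days post bisection (dpb). The libraries of the 3 hpb samples carry the label 0 dpb. Each of the 9 groups had 2 libraries, labelled as biological replicates, and each library came from a pool of about 300 siblings. No genotype, transgene or drug is named for any group, so that cutting, fragment and time were what differed between them. The cut left the gut behind the foregut in the posterior fragment. The p-values rest on a spread between pools that was estimated over all 9 groups together, after a term for the replicate number. RNA of whole fragments was sequenced, so fewer cells of a type and less RNA per cell cannot be told apart.

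As background, members of these families move amino acids and their derivatives across the plasma membrane, or load them into vesicles and lysosomes. In mammals, the Slc7 light subunits work as exchangers when paired with a heavy subunit of the Slc3 family, and such pairs take up cystine and basic amino acids in gut and kidney. Slc6 carriers use the sodium gradient to retrieve glycine, GABA and monoamines after release, and Slc18 carriers fill synaptic vesicles. The larva of a sea star feeds on algae, digests them in a tripartite gut, and has a nervous system along its ciliary bands.

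All 68 loci passed the filter on low values by its definition. Of these, 13 would not have passed on the anterior libraries alone, whereas none depended on the anterior libraries to pass. Many loci shared a name. Of the 68, 62 had the same name as at least 1 other locus, 14 lay in pairs that split 1 gene model, and 9 overlapped another expressed locus. The reads were short and the strand setting of the counting was not given in the sources used here, so that values of such loci are uncertain as values of single genes. The largest names were Slc6a5 with 12 loci, Slc7a11 with 9 and Slc7a8 with 8.

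Levels between loci were compared as the mean CPM per kb of exon over the 18 libraries. The highest was Slc43a2 XLOC_055833 at 139 CPM per kb, a locus named for a sodium-independent carrier of branched-chain amino acids and phenylalanine. Slc6a5 XLOC_056997, named for the neuronal glycine carrier of mammals, followed at 112 CPM per kb. The best-covered loci of the other families were lower. Slc3a1 XLOC_063129 had 38.5 CPM per kb, Slc1a3 XLOC_058812 had 19.8, Slc7a11 XLOC_059586 had 17.5 and Slc36a1 XLOC_020050 had 11.3. Slc18a2 XLOC_021472, the only locus named for a vesicular monoamine carrier, had 9.95 CPM per kb, and the highest loci of Slc15, Slc38 and Slc17 had 7.35, 3.20 and 2.04 CPM per kb.

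**Figure D1:**
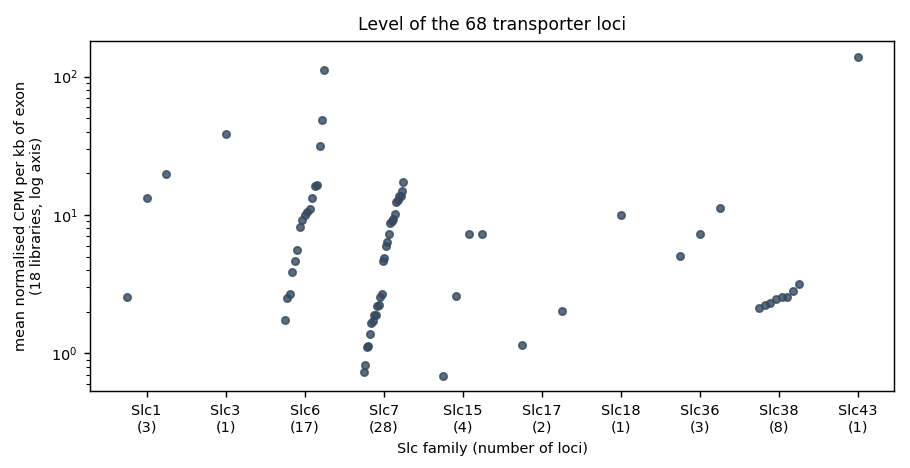
Mean level of the 68 carrier loci, as CPM per kb of exon over 18 libraries on a log axis, grouped by solute carrier family. Each point is 1 locus, and the loci of Slc43 and Slc6 reach 139 and 112 CPM per kb.

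The libraries held 15868104 to 36152675 counts on loci, with a median of 20631998. The 68 loci together summed to 2314 to 3749.8 normalised CPM per library. Gut digestive enzymes were set as markers of gut cells, and part of them were lower in anterior fragments. Of 29 loci, 11 were lower in anterior fragments than in controls at each time, beside 4.76%, 2.24% and 2.15% of all loci. All 11 were named Amy, Amy2, Anpep or Mgam, and no locus named for a trypsin or lipase was called. The summed level of the 29 loci was 1739.7 to 4859 CPM in anterior fragments, 5035 to 5824 CPM in posterior fragments and 2498 to 3875 CPM in controls at 3 hpb. At 6 dpb it was 466 to 1120.2 CPM in anterior fragments, 1726 to 2183 in posterior fragments and 1834 to 1948 in controls. At most 2 of these loci were at 0 in an anterior library and none in the other libraries. Their part in the results that follow was not tested. Of 8 neuronal marker loci, SNAP25 XLOC_006129, a synaptic vesicle fusion gene, was higher in anterior fragments at 3 hpb (log2 difference 1.69, SE 0.36, adjusted p = 0.0176). None of the others was called in a comparison of fragments. Their summed level was 252 to 337 CPM in anterior fragments, 244 to 296 in posterior fragments and 236 to 274 in controls. None of the named muscle markers matched an expressed locus.

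In anterior fragments, the heavy subunit locus Slc3a1 and several light subunit loci fell to a small share of their control level. They stayed low through 6 dpb. In sum, the 22 light subunit loci overlapped with controls. Their summed level was 389 to 433 CPM in anterior fragments and 370 to 440 CPM in controls at 3 hpb. At 6 dpb it was 321 to 516 CPM in anterior fragments and 358 to 511 CPM in controls. At 3 hpb, 8 of the 68 loci (11.8%) fell and 4 (5.88%) rose, against a background of 4.76% lower and 2.31% higher among all loci tested. At 3 dpb 9 loci (13.2%) fell and none rose, against 2.24% and 0.0189% of all loci. At 6 dpb 8 loci (11.8%) fell and none rose, against 2.15% and 0.044% of all loci. Calls are those of edgeR's quasi-likelihood test with a p, adjusted by Benjamini and Hochberg for the 31798 loci, below 0.05. At an unadjusted p under 0.05, 2 loci were higher at 3 dpb and 0 at 6 dpb, against 1.03% and 0.978% of all loci, and of the alternatives run only a fit per time point called a rise at these times, of 2 loci at 3 dpb. The median log2 fold change of the 68 loci was -0.18, -0.10 and 0.03 at the 3 times, beside -0.01, 0.02 and 0.01 for all loci. When the replicate number was fitted as a block inside each time point (the nested block), 13 loci rose and 17 fell at 3 hpb, on a background of 12.5% and 14.5%. Without any replicate block, 6 loci were called at 3 hpb, against 1.92% of all loci. Leaving out a library at 3 hpb left 5 calls without control replicate 2, 6 without anterior replicate 1 and 7 without anterior replicate 2, with 5 to 6 lower.

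**Figure D2:**
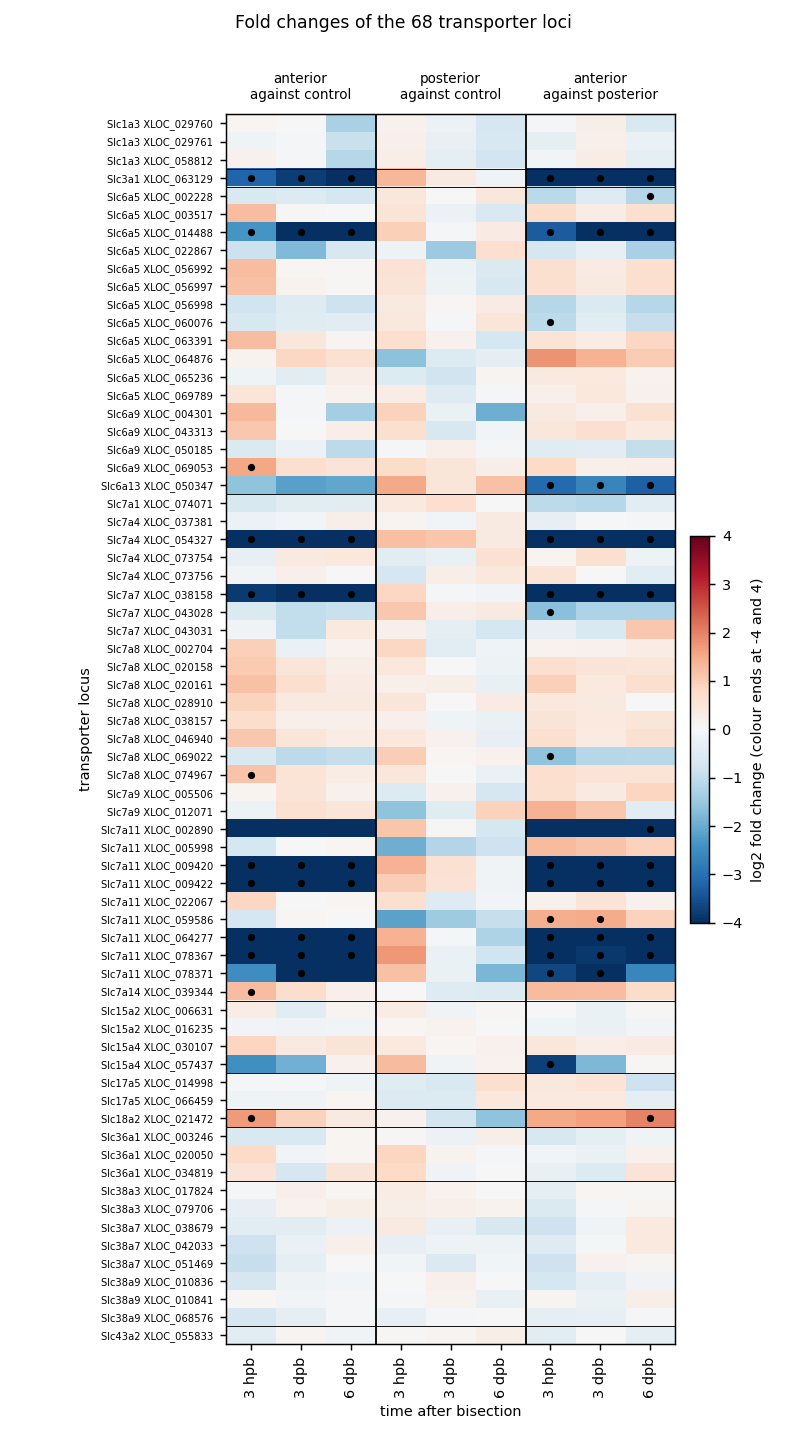
Log2 fold change of the 68 carrier loci (rows, by family) in 9 comparisons of fragments (columns), with a dot where the adjusted p is under 0.05. The colour scale ends at 4 in either direction, and the darkest blue cells include loci with at most 3 counts in each anterior library. The same 8 rows are blue with a dot in all 6 anterior columns.

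The loci that fell were compared with posterior fragments as well as with controls. Here 14 of the 68 loci (20.6%) were lower and 1 (1.47%) higher in anterior than in posterior fragments at 3 hpb, against 4.41% and 0.884% of all loci. At 3 dpb 10 were lower (14.7%) and 1 higher, against 2.92% and 0.667% of all loci. At 6 dpb 11 were lower (16.2%) and 1 higher, against 2.73% and 1.6% of all loci. With the nested block, 8 were higher and 18 lower at 3 hpb, and 5 were higher and 13 lower at 3 dpb, on backgrounds of 3.76% and 8.22%, and of 2.56% and 4.87%. Without anterior replicate 1 at 3 hpb 8 loci were called, and without anterior replicate 2 or posterior replicate 1 at 3 dpb 7. Both kinds of comparison use the same anterior libraries. At all 3 times 8 loci were lower than in controls and 9 lower than in posterior fragments, and 8 loci of 7 gene models were lower in all 6 comparisons. The share of all loci was not computed for these joint counts. The shares given for single comparisons are no background for them, because the 6 comparisons share libraries. The 29 gut enzyme loci had 11 or 12 falls in each of the same comparisons, beside 2.15 to 4.76% of all loci. Their part here was not tested. The 8 carrier loci were Slc3a1, Slc7a7 XLOC_038158, Slc7a4 XLOC_054327, Slc6a5 XLOC_014488 and 4 loci of Slc7a11. For each of the 8, the highest of the 6 anterior libraries lay below the lowest of the 12 posterior and control libraries. The 8 were chosen by their calls in these same libraries, so this separation is a description and no added support. How many of all loci show it was not counted. Of the 8 loci, 7 were among those that passed the filter through posterior and control libraries. All 48 differences were also called without a filter on low values, with other scaling, with the nested block and by DESeq2, 47 of the 48 in a fit per time point and 43 without a replicate block. In each of these runs the 68 loci still came from the filtered set. The run without a filter therefore cannot show how far the 8 loci depend on that filter. Leaving out 1 control library left 5 to 8 calls of 8, with 5 without control replicate 2 at 3 hpb. Leaving out 1 anterior library left 13 to 15 calls of 16, and 1 posterior library 7 or 8 of 8.

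Slc3a1, in mammals the heavy subunit of the cystine and basic amino acid exchanger of gut and kidney, lay on scaffold 639 of the authors' assembly, from 77151 to 89604 on the plus strand. It had 8.37 and 6.10 CPM in anterior fragments, 120.1 and 215 CPM in posterior fragments and 56.4 and 75.9 CPM in controls at 3 hpb. At 3 dpb it had 5.55 and 2.86 CPM in anterior fragments, 75.2 and 70.5 in posterior fragments and 57 and 56.7 in controls. At 6 dpb it had 2.04 and 2.66 CPM in anterior fragments, 37.4 and 43.9 in posterior fragments and 51.1 and 38.2 in controls. The anterior libraries were below all others at every time, and the posterior libraries were above the controls at 3 hpb. The log2 difference between anterior fragments and controls was -3.19 (SE 0.40, adjusted p = 0.000925) at 3 hpb, -3.75 (SE 0.41, adjusted p = 0.000273) at 3 dpb and -4.25 (SE 0.42, adjusted p = 9.8e-05) at 6 dpb. Against posterior fragments, the log2 difference was -4.53, -4.11 and -4.11. No locus named Slc7a9, for the partner of Slc3a1 in mammals, was called in a comparison of fragments. Of these, XLOC_005506, chosen after its values were seen, overlapped with controls at 3 hpb. It had 4.73 and 7.76 CPM in anterior fragments, 2.36 and 6.05 in posterior fragments and 2.89 and 9.55 in controls.

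Slc7a11, in mammals the light subunit that exchanges cystine for glutamate, was the name of loci that differed in direction between fragments. XLOC_009420, on scaffold 12619 from 14520 to 31879 on the plus strand, had 2.11 and 2.03 CPM in anterior fragments at 3 hpb, against 69.0 and 116 CPM in posterior fragments and 36.8 and 34.2 CPM in controls. At 3 dpb it had 0.853 and 1.38 CPM in anterior fragments, against 49.1 and 40.4 in posterior fragments and 31.2 and 26.9 in controls. At 6 dpb it had 0.310 and 0.352 CPM in anterior fragments, against 28.7 and 25.1 in posterior fragments and 34.4 and 24.4 in controls. The 6 anterior libraries lay below every posterior and control library. The log2 difference from controls was -4.10 (SE 0.35, adjusted p = 0.000266), -4.70 (SE 0.37, adjusted p = 8.4e-05) and -6.46 (SE 0.41, adjusted p = 1.1e-05) at the 3 times.

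XLOC_009422 lay inside XLOC_009420 and belonged to the same gene model. It had 0.0474 to 0.226 CPM in anterior fragments, 4.29 to 17 CPM in posterior fragments and 4.01 to 7.92 CPM in controls. With no more than 3 counts in any anterior library, its fold is given as a bound, taken at 3 counts per library. It was at least 30.2-fold lower than in controls at 3 hpb, at least 32.1-fold lower at 3 dpb and at least 48.0-fold lower at 6 dpb. Slc7a11 XLOC_064277, on scaffold 6577, had 0 to 0.153 CPM in anterior fragments, 0.631 to 8.52 in posterior fragments and 1.45 to 4.62 in controls. It was at least 15.2-, 24.5- and 19.9-fold lower than in controls at the 3 times. Slc7a11 XLOC_078367, on scaffold 9510, had 0 to 0.190 CPM in anterior fragments, 0.673 to 6.56 in posterior fragments and 0.528 to 3.43 in controls. It was at least 8.70-fold lower than in controls at 3 hpb and 11.5-fold at 6 dpb, and its log2 difference was -4.13 at 3 dpb (SE 0.81, adjusted p = 0.0198). Over 18 libraries, the log2 levels of XLOC_064277 and XLOC_078367 correlated with r = 0.981, as a description of loci that share a name and the same libraries. XLOC_078371, from the same gene model as XLOC_078367, fell against controls at 3 dpb, by at least 16.2-fold. At 3 hpb its log2 difference was -2.47 (SE 0.84, adjusted p = 0.0988). With the nested block it was called lower at 3 hpb (-2.50, adjusted p = 0.00939) and at 6 dpb (adjusted p = 0.0108) as well.

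**Figure D3:**
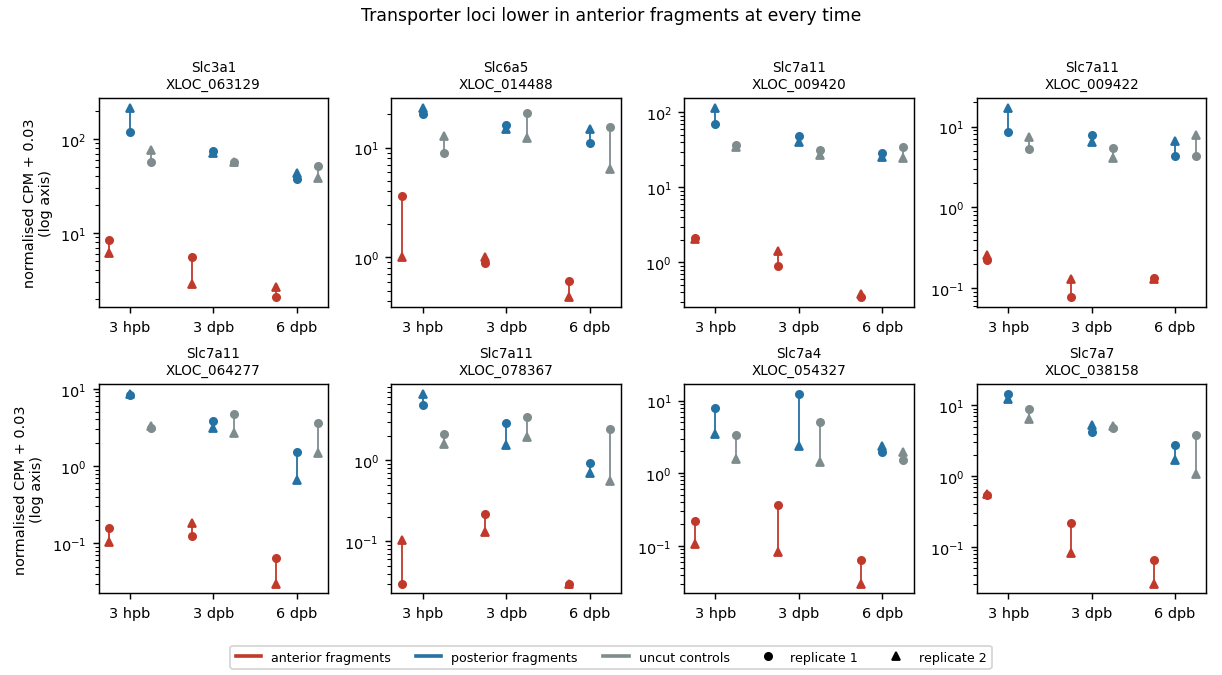
Normalised CPM plus 0.03, on a log axis, of the 8 loci that were lower in anterior fragments in all 6 comparisons, with 2 libraries for each fragment and time. The anterior points of every panel lie below all posterior and control points.

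The remaining low loci came from other carriers. Slc7a7 XLOC_038158, named for a light subunit that in mammals exports basic amino acids from gut and kidney cells, lay on scaffold 2848 from 24643 to 30497 on the minus strand. It had 0.511 and 0.527 CPM in anterior fragments, 14.5 and 12.1 in posterior fragments and 8.73 and 6.41 in controls at 3 hpb, and 0.190 and 0.0511 in anterior fragments, 4.14 and 5.31 in posterior fragments and 4.73 and 5.11 in controls at 3 dpb. At 6 dpb it had 0.0345 and 0 CPM in anterior fragments, against 2.68 and 1.64 in posterior fragments and 3.77 and 1.06 in controls. Its level was lower at 6 dpb than at 3 hpb in all 3 kinds of sample, and the anterior libraries were lowest throughout. The log2 difference from controls was -3.84 (SE 0.57, adjusted p = 0.0024) at 3 hpb and -5.34 (SE 0.65, adjusted p = 0.000555) at 3 dpb, and at 6 dpb it was at least 19-fold lower. Its neighbour Slc7a8 XLOC_038157, which ends at 24531 on the same strand and is named here after its values were seen, had 132 and 81.1 CPM in anterior fragments, 89.4 and 58.1 in posterior fragments and 86.0 and 46.3 in controls at 3 hpb. With 1 block that neighbour was not called (log2 difference from controls 0.71, SE 0.23, adjusted p = 0.0821), and the nested block called it higher than in controls at 3 hpb (adjusted p = 0.0184).

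Slc7a4 XLOC_054327, whose mammalian namesake resembles the cationic carriers, lay on scaffold 5017 from 5344 to 16358. It had 0.192 and 0.0753 CPM in anterior fragments, 7.91 and 3.41 in posterior fragments and 3.32 and 1.54 in controls at 3 hpb. Its replicate libraries differed more than those of Slc3a1, with 12.3 and 2.3 CPM in posterior fragments and 5.04 and 1.38 CPM in controls at 3 dpb, beside 0.332 and 0.0511 in anterior fragments. It was at least 11.6-fold lower than in controls at 3 hpb and 13.3-fold at 6 dpb, with a log2 difference of -3.99 (SE 0.79, adjusted p = 0.0172) at 3 dpb. Without control replicate 2 at 3 hpb, or without either anterior library of that time, its adjusted p at 3 hpb was 0.0652 to 0.0997, and XLOC_078367 lost its call at 3 hpb without control replicate 2 or anterior replicate 1. The other 3 loci named Slc7a4 had log2 differences from controls between -0.34 and -0.12 at 3 hpb and none was called.

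Slc6a5 XLOC_014488, named for a glycine carrier, fell against controls at all 3 times. It lay at the end of scaffold 1428, from 1 to 8231 on the minus strand. It had 3.58 and 0.979 CPM in anterior fragments, 20.3 and 23.0 in posterior fragments and 8.98 and 12.8 in controls at 3 hpb. At 3 dpb the values were 0.853 and 0.970 CPM in anterior fragments, 16.1 and 14.8 in posterior fragments and 20.6 and 12.2 in controls. At 6 dpb they were 0.586 and 0.402 CPM in anterior fragments, 10.9 and 14.6 in posterior fragments and 15.3 and 6.40 in controls. Its log2 difference from controls was -2.35 (SE 0.53, adjusted p = 0.0238), -4.12 (SE 0.57, adjusted p = 0.00148) and -4.40 (SE 0.59, adjusted p = 0.00106). None of the other 11 loci named Slc6a5 was called against controls in anterior fragments, and 6 of the 12 lay above 0 at 3 hpb. The nested block called 6 of the 11 at that time, beside 26.9% of all loci in either direction. XLOC_056998 (-0.79, adjusted p = 0.0169) and XLOC_060076 (-0.63, adjusted p = 0.0360) were lower, and XLOC_003517, XLOC_056992, XLOC_056997 and XLOC_063391 were higher.

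Further loci were called lower in anterior than in posterior fragments and were not called against controls, and whether these differences differ was not tested. Slc6a13 XLOC_050347, the single locus named for a GABA carrier, had 3.64 and 1.21 CPM in anterior fragments, 21.4 and 18.5 in posterior fragments and 6.64 and 7.18 in controls at 3 hpb. At 6 dpb it had 1.41 and 0.453 CPM in anterior fragments, 6.02 and 10.6 in posterior fragments and 5.20 and 2.71 in controls. The groups did not overlap at either time, and controls lay between the fragments. The log2 difference between anterior and posterior fragments was -3.11 (SE 0.56, adjusted p = 0.00532) at 3 hpb, -2.64 (SE 0.56, adjusted p = 0.0182) at 3 dpb and -3.27 (SE 0.58, adjusted p = 0.00645) at 6 dpb. Against controls it was -1.61, -2.17 and -2.09, with adjusted p of 0.0972, 0.080 and 0.113, and with the nested block of 0.0475, 0.0477 and 0.0770.

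At 3 hpb, 4 more loci were lower in anterior than in posterior fragments. Slc7a7 XLOC_043028 had 8.69 and 7.68 CPM in anterior fragments, against 21.4 and 30.0 in posterior fragments (log2 difference -1.66, SE 0.34, adjusted p = 0.0118), beside 11.7 and 12.7 in controls. Slc7a8 XLOC_069022, named for a light subunit that exchanges neutral amino acids, had 29.5 and 25.2 CPM in anterior fragments, against 69.2 and 94.7 in posterior fragments (-1.60, SE 0.38, adjusted p = 0.0275), beside 38.5 and 44.3 in controls. In each of these loci the posterior libraries were above the controls and the anterior libraries below them. Slc15a4 XLOC_057437, whose namesake carries histidine and peptides across the lysosomal membrane, had 0.575 and 0.151 CPM in anterior fragments, 8.95 and 1.62 in posterior fragments and 3.14 and 0.820 in controls (-3.73, SE 0.94, adjusted p = 0.0408). Its posterior and control libraries overlapped, and replicate 1 was above replicate 2 in each group. Slc6a5 XLOC_060076 had 42.7 and 28.2 CPM in anterior fragments, against 77.5 and 66.7 in posterior fragments (-1.05, SE 0.25, adjusted p = 0.0265). At 6 dpb, Slc6a5 XLOC_002228 differed by -1.16 (SE 0.28, adjusted p = 0.0404). Slc7a11 XLOC_002890 was at 0 in both anterior libraries at 6 dpb, had 0.745 and 6.99 CPM in posterior fragments and was at least 30.4-fold lower in anterior fragments, a call (adjusted p = 0.0489) that was lost without posterior replicate 2 or without either anterior library. With the nested block, Slc15a4 XLOC_057437 (adjusted p = 0.0181) and Slc6a5 XLOC_060076 were also lower than in controls at 3 hpb. That block called Slc7a11 XLOC_002890 lower than in controls at all 3 times, with adjusted p of 0.0088, 0.00469 and 5.7e-05.

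Loci that rose in anterior fragments did so at 3 hpb. Slc18a2 XLOC_021472, in mammals the carrier that loads dopamine, serotonin and other monoamines into vesicles, lay on scaffold 16956 from 1918 to 11785 on the plus strand. It had 18.6 and 24.9 CPM in anterior fragments, 4.00 and 11.5 in posterior fragments and 6.70 and 6.56 in controls at 3 hpb, a log2 difference from controls of 1.70 (SE 0.42, adjusted p = 0.0354). At 3 dpb it had 18.1 and 15.9 CPM in anterior fragments, 5.12 and 5.76 in posterior fragments and 9.38 and 8.40 in controls. At 6 dpb it had 27.1 and 16.9 CPM in anterior fragments, 5.78 and 5.47 in posterior fragments and 13.9 and 21.1 in controls. The anterior libraries were above the posterior libraries at all 3 times, and above the controls at 3 hpb and 3 dpb but not at 6 dpb. Against posterior fragments the log2 difference was 1.52 (SE 0.42, adjusted p = 0.0668), 1.65 (SE 0.42, adjusted p = 0.0594) and 1.98 (SE 0.43, adjusted p = 0.0213). With the nested block it was also called at 3 hpb (1.60, adjusted p = 0.0133) and at 3 dpb (1.64, adjusted p = 0.0156). In the fit with 1 block the call at 6 dpb was lost without anterior replicate 1 or either posterior library, where the difference was 1.44 to 2.13.

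Slc6a9 XLOC_069053, named for the glycine carrier that mammals express mainly in glia, had 35.8 and 52.3 CPM in anterior fragments, 19.97 and 30.6 in posterior fragments and 16.1 and 14.6 in controls at 3 hpb (log2 difference from controls 1.54, SE 0.42, adjusted p = 0.0484). It overlaps another expressed locus. Slc7a14 XLOC_039344, named for a lysosomal relative of the cationic carriers, had 18.8 and 19.97 CPM in anterior fragments, 7.35 and 8.86 in posterior fragments and 8.06 and 8.39 in controls (1.24, SE 0.33, adjusted p = 0.0467). Slc7a8 XLOC_074967 had 28 and 51.6 CPM in anterior fragments, 16.1 and 34.8 in posterior fragments and 13.2 and 23.0 in controls (1.13, SE 0.22, adjusted p = 0.0116). In all 4 loci the anterior libraries were above the controls at 3 hpb. The calls were close to the threshold. With library size alone as the scaling, which moved the median of all loci to -0.44 in this comparison, the 4 log2 differences were 0.71 to 1.28 and none was called, and 14 loci were called lower and 0 higher, with 3 higher at an unadjusted p under 0.05. Over the alternatives the adjusted p was 0.00206 to 0.195 for Slc18a2, 0.00166 to 0.255 for Slc6a9, 0.00572 to 0.193 for Slc7a14 and 5.7e-07 to 0.494 for Slc7a8. Leaving out any of the 4 libraries of this comparison ended the call of Slc18a2, Slc6a9 and Slc7a14, and leaving out control replicate 2 or anterior replicate 1 that of Slc7a8. Axonemal dynein heavy chains, set as markers of ciliated cells, summed to 4869 to 5444 CPM in anterior fragments and 1974 to 4337 CPM in controls at 3 hpb, and 34 of 35 loci lay above 0 with no call, and their part in these rises was not tested.

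**Figure D4:**
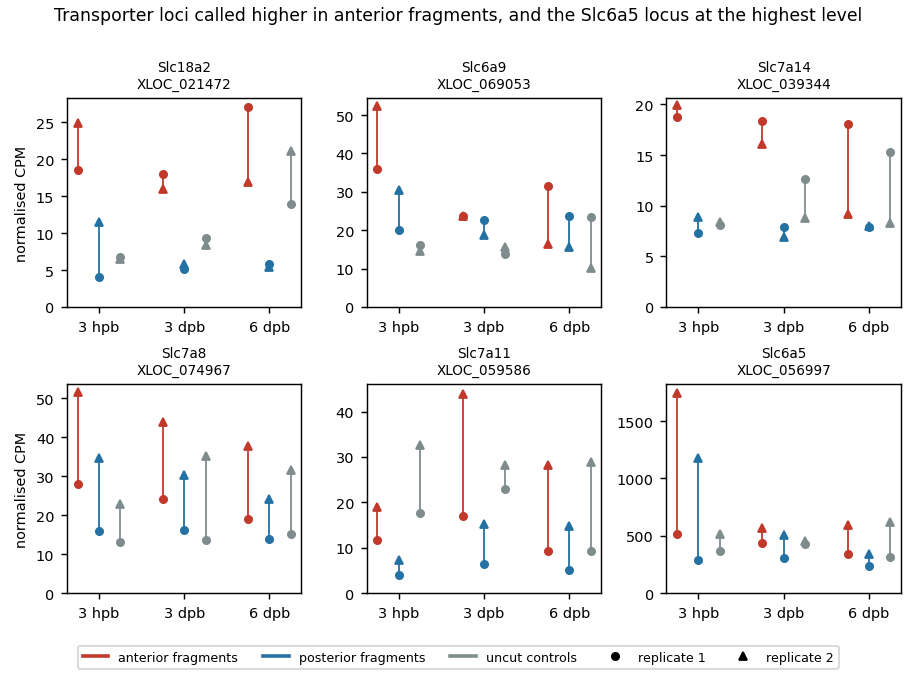
Normalised CPM, in 2 libraries for each fragment and time, of 6 loci: Slc18a2, Slc6a9, Slc7a14 and Slc7a8, which rose in anterior fragments at 3 hpb, Slc7a11 XLOC_059586, and Slc6a5 XLOC_056997, which was called with the nested block but not with 1 block. Slc18a2 lies at 15.9 to 27.1 CPM in anterior and at 4.00 to 11.5 CPM in posterior fragments over the 3 times.

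Most loci that share the name Slc7a8 or Slc6a9 with these rises were above controls at 3 hpb. The names were taken up because of those calls, and the share of all loci above 0 was not counted. Of the 8 loci named Slc7a8, 7 lay above 0 and 1 was at -0.61, with a median log2 difference of 0.99 and 1 call. Of the 4 loci named Slc6a9, 3 lay above 0 and 1 was at -0.56, with a median of 1.19 and 1 call. The nested block also called Slc7a8 XLOC_020158, XLOC_020161, XLOC_038157 and XLOC_046940 and Slc6a9 XLOC_004301 higher, with adjusted p of 0.0063 to 0.0492. It called 12.5% of all loci higher and 14.5% lower in this comparison. XLOC_020158 and XLOC_020161 split 1 gene model. Slc6a5 XLOC_056997, the most abundant glycine carrier locus, had 512 and 1744 CPM in anterior fragments, 288 and 1176 in posterior fragments and 370.5 and 515 in controls at 3 hpb. Replicate 2 was more than 3-fold above replicate 1 in each kind of fragment, and the log2 difference from controls of 1.17 (SE 0.42, adjusted p = 0.117) was not called. Slc6a5 XLOC_003517, XLOC_056992 and XLOC_063391, chosen after their values were seen, had log2 differences of 1.23, 1.22 and 1.23, also without a call. With the nested block, these 4 of the 12 Slc6a5 loci passed the threshold, with adjusted p of 0.0113 to 0.0351, and XLOC_056998 and XLOC_060076 passed in the opposite direction. The median of the 12 was -0.0091.

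In the fit with 1 block, none of the 68 loci was called in posterior fragments against controls at any time. Among all loci tested, 0.0252% were called higher and 0.0409% lower at 3 hpb, 0% at 3 dpb in either direction, and 0% higher and 0.00629% lower at 6 dpb. At an unadjusted p under 0.05, 9 of the 68 were higher and 3 lower at 3 hpb. The same counts were 0 and 3 at 3 dpb and 1 and 5 at 6 dpb. The 3 pairs compare with 5.32% and 5.7%, 1.19% and 1.58%, and 3.01% and 6.08% of all loci. DESeq2 called 4, 1 and 2 loci at the 3 times, against 1.86%, 0.305% and 2.07% of all loci. The nested block called 4 higher and 3 lower at 3 hpb (2.43% and 1.86% of all loci), 0 and 0 at 3 dpb (0.0409% and 0.23%), and 0 and 2 at 6 dpb (1.1% and 3.3%). The median log2 difference of the 68 loci was 0.36, -0.08 and -0.10, beside -0.03, -0.01 and 0.01 for all loci.

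The smallest p in posterior fragments belonged to Slc7a11 XLOC_059586, on scaffold 5809 from 2870 to 4464 on the minus strand. It had 4.00 and 7.41 CPM in posterior fragments at 3 hpb, against 17.6 and 32.6 CPM in controls, a log2 difference of -2.14 (SE 0.35, adjusted p = 0.0616). At 3 dpb it had 6.34 and 15.2 CPM in posterior fragments, against 22.9 and 28.3 in controls, and at 6 dpb 5.04 and 14.7 CPM in posterior fragments, against 9.33 and 28.8 in controls. The groups did not overlap at 3 hpb and 3 dpb and overlapped at 6 dpb, with log2 differences of -1.43 and -0.93 at the later times. In anterior fragments this locus had 11.7 and 18.9, 17 and 44.0, and 9.25 and 28.2 CPM at the 3 times, and it was higher in anterior than in posterior fragments at 3 hpb (1.46, SE 0.35, adjusted p = 0.0289) and 3 dpb (1.48, SE 0.34, adjusted p = 0.0318). Without a replicate block, or without a filter on low values, it was called at neither time, with log2 differences of 1.42 to 1.51. Both calls were lost without either posterior library or without anterior replicate 1, and at 3 dpb also without anterior replicate 2, where the log2 difference was 1.20 to 1.61. Slc7a11 XLOC_005998, with a profile close to it (r = 0.973 over 18 libraries), differed from controls by -1.96 (SE 0.46, adjusted p = 0.158, and 0.0113 with the nested block) in posterior fragments at 3 hpb.

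Slc7a11 XLOC_009420 was also among the 3 smallest p at 3 hpb, at 69.0 and 116 CPM in posterior fragments and 36.8 and 34.2 in controls (1.38, SE 0.31, adjusted p = 0.143). Slc3a1 differed there by 1.34 (SE 0.37, adjusted p = 0.225). With the nested block, both passed, with adjusted p of 0.0223 and 0.0423, and so did XLOC_059586 at 0.00292. At 6 dpb the smallest p belonged to Slc18a2, at 5.78 and 5.47 CPM in posterior fragments and 13.9 and 21.1 in controls (-1.61, SE 0.42, adjusted p = 0.236, and 0.0299 with the nested block). Slc6a9 XLOC_004301 had 29.8 and 29.3 CPM in posterior fragments, against 191 and 55.2 in controls at that time (-1.96, SE 0.56, adjusted p = 0.265). At 3 dpb the 3 smallest p were those of XLOC_059586, XLOC_005998 (-1.17) and Slc6a5 XLOC_065236 (-0.79, SE 0.35, adjusted p = 1).

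The other families gave few or no calls. Slc43a2 XLOC_055833, the most abundant carrier, had 812 and 208 CPM in anterior fragments, 855 and 460.4 in posterior fragments and 670.3 and 557 in controls at 3 hpb, and 1169 and 561 CPM in anterior fragments, 1052 and 1015 in posterior fragments and 645 and 1029 in controls at 6 dpb. Its groups overlapped, and in anterior fragments replicate 1 was above replicate 2 at all 3 times. The 3 loci named Slc1a3, for a glutamate carrier that mammals express in glia, had a median log2 difference from controls of -1.13 in anterior fragments and of -0.69 in posterior fragments, each at 6 dpb with no call. Of these, Slc1a3 XLOC_058812 had 26.4 and 46.0 CPM in anterior fragments, 49.0 and 36.7 in posterior fragments and 103 and 35.6 in controls at that time, and the groups overlapped. The 8 loci of Slc38, carriers of glutamine and other neutral amino acids, had a median of -0.57 in anterior fragments at 3 hpb with no call, and the nested block called Slc38a7 XLOC_051469 lower (-0.91, adjusted p = 0.0153).

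The best-covered loci of 4 further families were not called in any comparison of fragments. Slc36a1 XLOC_020050, named for a proton-coupled carrier of small amino acids, had 56.9 and 94.6 CPM in anterior fragments, 79.0 and 81.1 in posterior fragments and 60.5 and 26.5 in controls at 3 hpb, and 39.0 and 44.2 CPM in anterior fragments, 38.6 and 35.1 in posterior fragments and 39.3 and 38.8 in controls at 6 dpb. Slc15a2 XLOC_006631, named for a peptide carrier, stayed between 8.61 and 15.6 CPM in all 18 libraries. Slc38a9 XLOC_068576, named for a lysosomal sensor of arginine, had 6.52 and 12.8 CPM in anterior fragments, 11.4 and 12.6 in posterior fragments and 13.6 and 16.6 in controls at 3 hpb (-0.68 against controls, SE 0.28, adjusted p = 0.155). Slc17a5 XLOC_066459, named for the lysosomal exporter of sialic acid, stayed between 2.3 and 6.27 CPM.

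In controls, none of the 68 loci was called between 3 dpb and 3 hpb, with a background of 0% in either direction, or between 6 and 3 dpb, with a background of 0.0126% higher and 0.0472% lower. At an unadjusted p under 0.05, 2 were higher and 0 lower at 3 dpb against 3 hpb, and 2 and 2 at 6 dpb against 3 dpb, with 1.03%, 1.48%, 2.88% and 2.7% of all loci. DESeq2 called 0 in each. The nested block called 4 higher and 2 lower at 3 dpb (3.6% and 5.97% of all loci), and 1 and 2 at 6 dpb (3.17% and 3.96%). The difference between fragments and controls was compared between 6 dpb and 3 hpb as well. None of the 68 loci was called, with a background of 0.0189% lower for anterior fragments and 0% in every other case. At an unadjusted p under 0.05, 0 were higher and 8 lower for anterior fragments, and 1 and 8 for posterior fragments, against 4.63%, 5.03%, 5.32% and 5.82% of all loci. The nested block called 0 higher and 1 lower for anterior fragments (0.846% and 1.47% of all loci), and 0 and 4 for posterior fragments (2.08% and 3.29%). DESeq2 called 1 and 2, against 0.745% and 1.47%. Thus the larger fall of XLOC_009420 at 6 dpb (-6.46) than at 3 hpb (-4.10) was not called as a change.

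Enzymes that make or break down transmitters were examined beside the carriers. Of 46 loci, 1 was called in anterior fragments against controls, beside 4.76% of all loci lower and 2.31% higher at that time. This was Maoa XLOC_020502, which breaks down monoamines, with a log2 difference of -1.36 (SE 0.31, adjusted p = 0.0252) at 3 hpb. The summed level of the 46 loci was then 3579 to 3645 CPM in anterior fragments, 2670 to 2831 in posterior fragments and 2350 to 2981 in controls. Against posterior fragments, Th XLOC_011290 and Dbh XLOC_074080, enzymes of catecholamine synthesis, were higher in anterior fragments at 6 dpb, by 2.58 (SE 0.55, adjusted p = 0.0196) and 4.50 (SE 0.74, adjusted p = 0.00392). At the same time Slc18a2 was higher in anterior fragments by 1.98. Maoa was lower in anterior than in posterior fragments by 1.58 on the log2 scale at 3 hpb. Of the loci named Ache, which breaks down acetylcholine, XLOC_028481 fell by 3.13 at 3 hpb and XLOC_010041 fell by 1.90 at 3 dpb. Of 67 loci of amino acid metabolism enzymes, 0 rose and 6, 2 and 2 fell in anterior fragments against controls at the 3 times, beside 4.76%, 2.24% and 2.15% of all loci. Against posterior fragments 3 fell at each time, beside 4.41%, 2.92% and 2.73% of all loci. In sum, the 67 loci were above controls in both fragments at 3 hpb. Their summed level was 4044 to 4251 CPM in anterior fragments, 3811 to 3873 in posterior fragments and 1479 to 3009 in controls. At 6 dpb it was 1140 to 1784 CPM in anterior fragments, 1337 to 1344 in posterior fragments and 1182 to 1815 in controls. Phgdh XLOC_067838, of serine synthesis, and Oat XLOC_068457, of ornithine breakdown, fell in all 6 comparisons, by 4.76 (SE 0.54, adjusted p = 0.000587) and 4.35 (SE 0.80, adjusted p = 0.00844) on the log2 scale against controls at 3 hpb. Shmt2 XLOC_014937, of serine and glycine interconversion, fell against controls at 3 hpb by 2.01 (SE 0.54, adjusted p = 0.0460) and against posterior fragments at all 3 times. Amt XLOC_043486 and Got2 XLOC_023928 fell at 3 hpb by 0.88 and 1.83 on the log2 scale.

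Part of the carrier loci differed between replicate numbers across the groups. Of the 68, 19 (27.9%) differed in the same direction between replicates 2 and 1 in all 9 groups, beside 26.2% of all loci. In 10 (14.7%, beside 12.7% of all loci) the median difference was also over 2-fold. These were chosen by that rule after their values were seen. Lower in replicate 2 were Slc7a9 XLOC_012071, named for the partner of Slc3a1 in mammals, with a median log2 ratio of -2.49, Slc6a9 XLOC_050185 (-2.01), Slc6a5 XLOC_022867 (-1.67), Slc15a4 XLOC_057437 (-1.46) and Slc7a4 XLOC_073754 (-1.45). Higher in replicate 2 were Slc7a7 XLOC_043031 (1.95), Slc7a11 XLOC_005998 (1.66) and XLOC_059586 (1.19), and Slc7a8 XLOC_020158 (1.10) and XLOC_046940 (1.01). At 6 dpb, Slc7a9 XLOC_012071 had 12.5 and 0.503 CPM in anterior fragments, 7.72 and 1.73 in posterior fragments and 9.19 and 0.264 in controls. Slc7a7 XLOC_043031 had 1.00 and 42.7 CPM in anterior fragments, 1.73 and 9.26 in posterior fragments and 1.5 and 26.3 in controls at that time. Neither locus was called in a comparison of fragments.

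**Figure D5:**
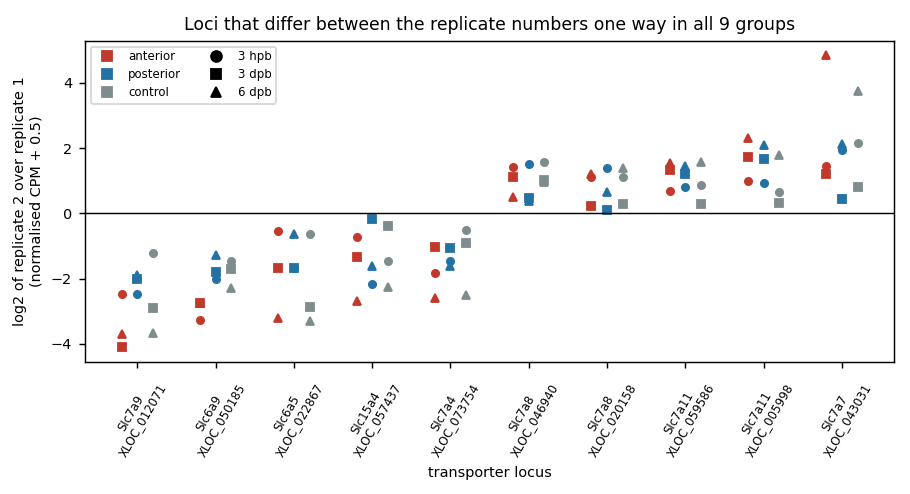
Log2 ratio of replicate 2 to replicate 1 (CPM plus 0.5) in each of the 9 groups, for the 10 loci that differed in the same direction in all groups with a median over 2-fold. Each point is 1 group, and the medians run between -2.49 for Slc7a9 XLOC_012071 and 1.95 for Slc7a7 XLOC_043031.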

How the data were processed

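RNA of pooled Patiria miniata larvae or fragments was sequenced in 18 libraries, grouped by the fragment, time and replicate number of their labels. Per the submitters' processing notes, the authors used CASAVA 1.8, TopHat2 2.0.12, SAMtools, Cufflinks 2.2.1, HTSeq 0.6.1p1 and edgeR 3.10.5, and the study's methods add read trimming and the v1.0 assembly. The deposited values are whole read counts for 80165 loci without normalisation. Entries that name no locus were left out of library sizes. Reads in no locus were 2.37 to 3.65% and reads in more than 1 locus 6.12 to 8.74%. Both are shares of the total of these reads and the counts on loci. Names come from the authors' table of expressed loci, whose log2 fold changes against controls, made by the authors, were not used. Positions come from the deposited exon table.

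The expression filter, over 3 CPM in 2 libraries or more, kept 31798 loci. R 4.3.3 with edgeR 4.0.16 gave TMM factors (0.677 to 1.22) and 1 quasi-likelihood fit of the 9 groups with the replicate number as a block, with p adjusted over all loci by Benjamini and Hochberg. Printed levels are CPM scaled by TMM, except CPM per kb of exon, which was scaled by library size alone. A group with at most 3 counts in each library is given as a bound. The study named sample batch as a term without defining it, and the replicate number stands for it. Deviations of same-numbered libraries correlated with r of 0.742 to 0.916 in 9 pairs of groups of 1 time and of 0.179 to 0.675 in 27 pairs of different times, so the numbers were taken as pairs. The block of the main fit is 1 term common to all times. It does not model pairing within each time, which the nested block does. The common dispersion was 0.146 in the main fit and 0.0475 with the nested block. With 2 libraries per group, precision rests on the spread shared across groups. The scripts were tested on simulated data.

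The members, lists, named loci and alternatives were chosen with earlier results of these data known. Named were the 5 largest rises and falls per comparison of fragments among called loci with the same direction in both replicates, the 3 smallest p where fewer than 3 were called, and the locus of each family with the highest CPM per kb. Alternatives were other scaling, filters, block terms, a fit per time point, DESeq2 and leaving out each library. One locus counted among the enzymes of amino acid metabolism is not reported here by name.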

Additional observations from a re-analysis of the deposited data

Results flagged for a closer look

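The difference between anterior fragments and controls was tested against that between posterior fragments and controls. With shared controls, this is the comparison of anterior with posterior fragments. It passed the test for the loci below, given as log2 differences or, where each anterior library had at most 3 counts, as the least fold by which the level was lower in anterior fragments.

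At 3 hpb, the light subunit loci differed by -5.47 for Slc7a11 XLOC_009420, -3.65 for Slc7a11 XLOC_078371, -4.66 for Slc7a7 XLOC_038158, -1.66 for Slc7a7 XLOC_043028, -1.60 for Slc7a8 XLOC_069022 and 1.46 for Slc7a11 XLOC_059586. The bounds were 61-fold for Slc7a11 XLOC_009422, 40.3-fold for XLOC_064277 and 27.3-fold for XLOC_078367. For Slc7a4 XLOC_054327, not counted among the light subunit loci, the bound was 27.1-fold. The other loci differed by -4.53 for Slc3a1 XLOC_063129, -3.11 for Slc6a13 XLOC_050347, -3.32 for Slc6a5 XLOC_014488, -1.05 for Slc6a5 XLOC_060076 and -3.73 for Slc15a4 XLOC_057437.

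At 3 dpb, the differences were -5.32 for Slc7a11 XLOC_009420, -3.85 for XLOC_078367, 1.48 for XLOC_059586, -5.29 for Slc7a7 XLOC_038158 and -5.09 for Slc7a4 XLOC_054327. They were -4.11 for Slc3a1 XLOC_063129, -2.64 for Slc6a13 XLOC_050347 and -4.07 for Slc6a5 XLOC_014488. The bounds were 48.3-fold for Slc7a11 XLOC_009422, 23.1-fold for XLOC_064277 and 13.5-fold for XLOC_078371.

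At 6 dpb, the differences were -6.33 for Slc7a11 XLOC_009420, -4.11 for Slc3a1 XLOC_063129, -3.27 for Slc6a13 XLOC_050347, -4.71 for Slc6a5 XLOC_014488, -1.16 for Slc6a5 XLOC_002228 and 1.98 for Slc18a2 XLOC_021472. The bounds were 43-fold for Slc7a11 XLOC_009422, 30.4-fold for XLOC_002890, 8.34-fold for XLOC_064277 and 6.16-fold for XLOC_078367, and 17-fold for Slc7a7 XLOC_038158 and 16.7-fold for Slc7a4 XLOC_054327.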

How the results depend on the processing

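Each group had 2 libraries, and many calls lay near the threshold. No named value changed direction under any alternative run. The cause of the changes below was not tested. For a fit per time point, library size alone and refits without a library, the share of all loci is not given. Their counts are therefore not read as results about the carriers.

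A replicate block nested in time point called 30 loci in anterior fragments against controls at 3 hpb, 7 and 2 in posterior fragments at 3 hpb and 6 dpb, 26 and 18 between fragments at 3 hpb and 3 dpb, 6 and 3 in controls at 3 dpb against 3 hpb and 6 against 3 dpb, and 1 and 4 for the change of the anterior and posterior difference. It called again every locus of the fit with 1 block. Of all loci, the nested block called 26.9%, 4.29% and 4.4%, 12% and 7.43%, 9.57% and 7.13%, and 2.32% and 5.37%, in the same order. No replicate block left 6 in anterior fragments at 3 hpb, against 1.92% of all loci. A fit per time point called 19 and 14 in anterior fragments at 3 hpb and 3 dpb, 2 in posterior fragments at 3 hpb and 21 between fragments at 3 dpb. DESeq2 called 20 in anterior fragments at 3 hpb, against 13.8% of all loci. It called 4, 1 and 2 in posterior fragments, against 1.86%, 0.305% and 2.07%, and 1 and 2 for the changes, against 0.745% and 1.47%. Library size alone called 1 in posterior fragments at 3 hpb; it moved the median of all loci to -0.44 in anterior fragments and to -0.40 in posterior fragments, each at 3 hpb, 0.15 in posterior fragments at 6 dpb and -0.15 between fragments at 6 dpb.

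Leaving out 1 library gave 5 to 10, 6 to 8 and 6 to 9 calls in anterior fragments at the 3 times, 8 to 11, 7 to 9 and 8 to 11 between fragments, and 0 for posterior fragments and controls. Of the named values so refitted, 43 lost their call and 141 did not change side.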
